A study of Mus musculus with 4 samples.

Results

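Solute carriers are membrane proteins that move sugars, amino acids, ions, metals, nucleotides and organic acids into cells, out of them or between their compartments. In fat cells they bring in glucose, amino acids and lactate and exchange metabolites across the mitochondrial membrane. The glucocorticoid receptor (GR) is a nuclear receptor that binds DNA once it holds a glucocorticoid hormone, and such hormones change the fuel use of fat cells. The genes described here are those whose symbol begins with Slc or Slco followed by a number and which are the nearest gene to a GR peak. There were 105 such genes among the 6081 genes named in the PDGFRa+ list, and they held 165 of its 10402 peaks. The CD137+ table of 30 genes named 0 solute carrier genes. Solute carriers make up 389 of 21887 annotated protein-coding genes, so 0 in a table of 30 genes says little about CD137+ cells. The 105 genes were chosen because they had a peak, so having one is not a result in itself.

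The peaks came from chromatin immunoprecipitation and sequencing of GR in adipose progenitors of C57BL/6 mice. Cells sorted for PDGFRa (CD140, a receptor for platelet-derived growth factor) or for CD137 (a receptor of the tumour necrosis factor family) were differentiated with an adipogenic cocktail and then given dexamethasone, a synthetic glucocorticoid, at 1 µM. Both cell types received dexamethasone, so no sample shows GR binding without it. Each cell type had 1 immunoprecipitate and 1 input, with no replicate, so no difference has a replicate check and no p-value is given. The labels do not state age or sex of the animals, any pooling, or which depot gave which cells. The sorted cells came from a depot abbreviated SAT or VAT. The labels describe an extraction step for embryos, which does not match adipose tissue. Read depth is unknown. Binding data do not measure expression, so the cell type could not be checked against its markers. Of 11 progenitor marker genes, 5 were nearest to a PDGFRa+ peak (45.5%, 95% Wilson interval 21.3 to 72.0, beside 22.5% of all protein-coding genes, which lies within it). Their scores were 42 for Pdgfra, 31 for Pdgfrb, 26 for Ly6a, 58 for Col1a2 and 49 for Lum. Only Pdgfra and Pdgfrb had a peak annotated to the gene itself, and the Col1a2 peak lay upstream, at -131517 bp from the start site. Cd34, Dpp4, Pi16, Col1a1, Dcn and Tnfrsf9 were nearest to none.

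Each peak of the PDGFRa+ list carries a whole-number score, from 20 upwards, on a scale of the authors that is not explained. A score is used here only to rank peaks within the list. Distances run from the peak centre to the start site of the nearest gene, and negative distances are upstream. Positions are printed as deposited. They are not taken to be on the mouse build GRCm38. Peak and distance together imply a start site, and for 7 of the 165 solute carrier peaks (4.24%) it fell less than 1 kb from either end of the gene in that build.

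One of the peaks lay on a start site and its sequence surroundings can be shown. Slc25a15 encodes the ornithine carrier of the inner mitochondrial membrane, which serves the urea cycle in liver. Its peak (score 26, chromosome 8, 23509017 to 23509200 as deposited) was centred 15 bp upstream of the start site. RefSeq's promoter table for GRCm38.p6 gives 2 start sites of this gene, 344 bp apart, and does not say which of them the peak was measured from, so both upstream stretches are shown. They run 5′ to 3′ on the minus strand and end at the base before the start site, and capitals mark CG dinucleotides. The first is chr8:22398622-22398871 and the second chr8:22398278-22398527.
Slc25a15 start site A: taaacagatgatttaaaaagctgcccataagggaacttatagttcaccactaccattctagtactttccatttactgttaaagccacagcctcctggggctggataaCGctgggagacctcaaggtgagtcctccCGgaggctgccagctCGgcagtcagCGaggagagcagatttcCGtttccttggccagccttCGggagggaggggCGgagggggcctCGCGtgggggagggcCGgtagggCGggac
Slc25a15 start site B: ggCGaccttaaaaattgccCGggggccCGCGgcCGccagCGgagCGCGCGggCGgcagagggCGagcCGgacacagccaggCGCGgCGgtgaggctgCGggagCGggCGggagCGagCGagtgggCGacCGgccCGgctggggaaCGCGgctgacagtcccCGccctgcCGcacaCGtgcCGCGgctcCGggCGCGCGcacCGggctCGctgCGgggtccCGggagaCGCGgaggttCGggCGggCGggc

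The stretch before start site A holds 11 CG dinucleotides in 250 bases and is 57.6% G or C, and that before start site B holds 43 and is 80.4% G or C. The median over the 32851 windows of the table is 6. Neither holds the hexamer AGAACA of the GR element, searched on both strands as AGAACA or TGTTCT, and neither holds the palindrome ACANNNTGT. A hexamer stood in 16.1% of all windows of this length, in 12.1% of the 389 windows of solute carrier genes and in 9.26% of the 108 windows of the genes with a peak. The palindrome, which can overlap a hexamer, stood in 5.84%, 5.40% and 4.63% of them. The windows end before the start site, whereas the Slc25a15 peak, 184 bp wide, reaches past it. The sequence of the peak itself could not be read. These letters describe the windows only and say nothing about binding by GR at these genes.

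The pair of strongest solute carrier peaks lay inside genes of organic anion transporters. Slco3a1, an organic anion transporter that carries prostaglandins and thyroxine, was nearest to 4 peaks. The strongest scored 87, at 43342 bp from the start site and within intron 1 of 10 (deposited position chromosome 7, 81656250 to 81656398). That intron also held a peak scoring 41, at 1067 bp from a start site. A peak scoring 25 stood in intron 2 of 10 and one scoring 33 upstream at -53695 bp. Slc22a22, which in mouse carries prostaglandins, was also nearest to 4 peaks, with scores of 87, 49, 41 and 41. Its strongest peak, in intron 2 of 11 (deposited position chromosome 15, 57258495 to 57258645), was on an IAPLTR3 element, a retroviral repeat of the ERVK class. The strongest Slco3a1 peak lay outside annotated repeats. Slc22a22 contained 3 of its 4 peaks, and Slco3a1 likewise 3 of 4.

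The next peak in rank belonged to Slc22a26, another organic anion transporter gene, with a score of 67 at -13171 bp on a LINE element of the L1Md_A type. Slc16a14, of the monocarboxylate transporter family, followed with 64 at -73385 bp, and Slc25a33, a mitochondrial carrier of pyrimidine nucleotides, with 61 at -36267 bp. A score of 58 was shared by 10 peaks. Among them were those nearest to Slc1a1 and Slc1a3, which encode glutamate transporters, at -26202 and -49160 bp, and Slc8a1, the sodium and calcium exchanger of the cell membrane, at -258446 bp. Slc4a10, a bicarbonate transporter gene, had its peak at -76684 bp, Slc39a12, a zinc importer gene, at -44495 bp, and Slc10a2, the bile acid transporter of the ileum, at -543296 bp. Slc14a1, a urea transporter gene, had its peak at 24927 bp. Slc17a8, a vesicular glutamate transporter, and Slc6a20b, of the sodium-coupled neurotransmitter transporter family, held theirs in their own introns, at 5866 and 26822 bp. The peak assigned to Slc2a2, the glucose transporter of liver and pancreatic islets, lay 115087 bp upstream in intron 12 of 30 of Tnik, a protein kinase gene.

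**Figure D1:**
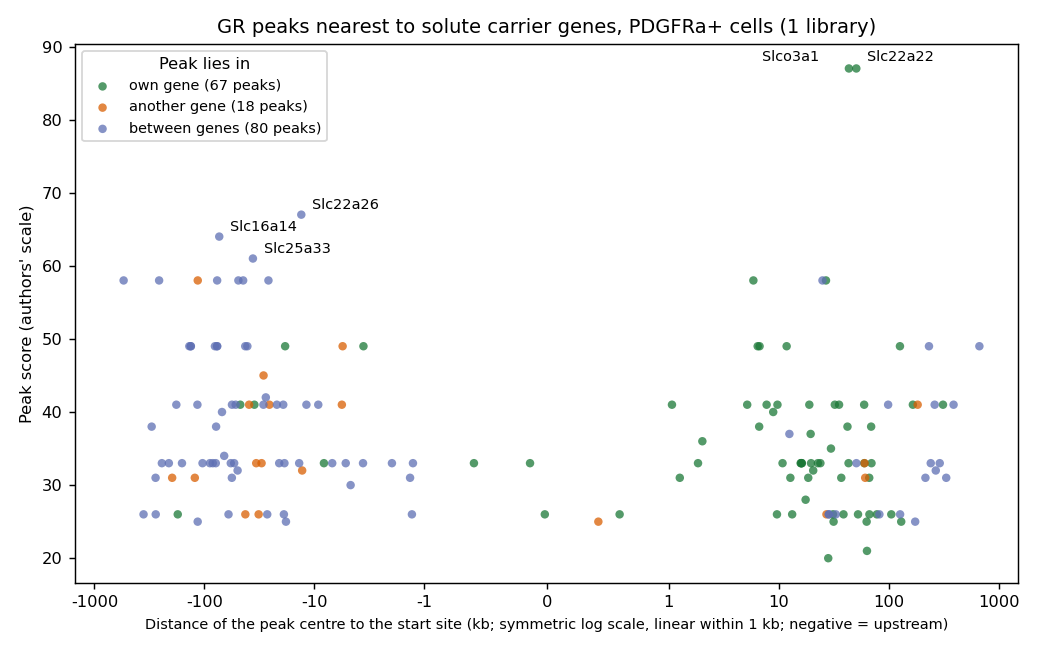
Score of each of the 165 solute carrier peaks (vertical axis, authors' scale) against its distance in kb to the start site (horizontal axis, symmetric log scale, negative is upstream). Colours mark peaks annotated to the own gene, to another gene or between genes, with promoter and end peaks counted to their gene. The Slco3a1 and Slc22a22 peaks at 87 stand above all other solute carrier peaks, and few points lie near the start site.

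The middle scores of the solute carrier peaks, and their share of 50 or more, were close to those of the other peaks. Their median was 33 (95% interval 33 to 37) against 34 (33 to 37) for the 10237 others. They ranged from 20 to 87, whereas the others ranged from 20 to 43344. The strongest solute carrier peaks were therefore far below the top of the list. A score of 50 or more was held by 15 of 165 (9.09%, 95% Wilson interval 5.59 to 14.5) and by 8.88% of the others (8.34 to 9.45). Scores are heavily tied, with 38 solute carrier peaks at exactly 33. All such intervals cover counting error only, and peaks of 1 library are not replicates.

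Of the 105 genes, 69 were nearest to 1 peak, 21 to 2, and 15 to 3 or more, at most 5. The share with 3 or more was 14.3% (95% Wilson interval 8.85 to 22.2), against 14.8% (14.0 to 15.8) of the other genes in the list. The 15 genes differed in how their peaks were placed. The 5 peaks of Slc16a14 all lay upstream and between genes, at 18.7 to 73.4 kb, within a stretch of 54.8 kb, with scores of 33 to 64. None lay inside the gene. The 3 listed peaks of Slc9a9 were also upstream, within 38.7 kb. In contrast, the 3 peaks of Slc4a4, a sodium bicarbonate cotransporter, all lay in its own introns, with scores of 49, 41 and 41 over 212.8 kb.

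Slc24a3, a potassium-dependent sodium and calcium exchanger, held 5 peaks with scores of 25 to 49, of which 3 lay in its introns. Slc14a2, a urea transporter of the kidney, also had 5, with scores of 26 to 49. Their distances ran from -84040 to -196664 bp, some measured from other start sites of the gene, and the last of these lay in Setbp1. Slc16a7, which encodes a monocarboxylate transporter of high affinity, had 4 low peaks with scores of 31 to 33 spread over 631.0 kb. Slco1a6, an organic anion transporter, had scores of 20, 26 and 49, its strongest at -42582 bp on a LINE element. Slc6a6, the taurine transporter, had 49 and 40 upstream and 33 in its intron 1 of 14. Slc35b3, which carries the sulfate donor PAPS into the Golgi, had 3 upstream peaks with scores of 38 to 49. Slc39a10, a zinc importer, had 1 peak at -133030 bp with a score of 49 and 2 in intron 1 with scores of 40 and 26. Slc6a15, a neutral amino acid transporter of brain, had scores of 25 to 33. Slc1a3 and Slc8a1 also had 3 peaks each, over 231.0 and 668.9 kb.

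**Figure D2:**
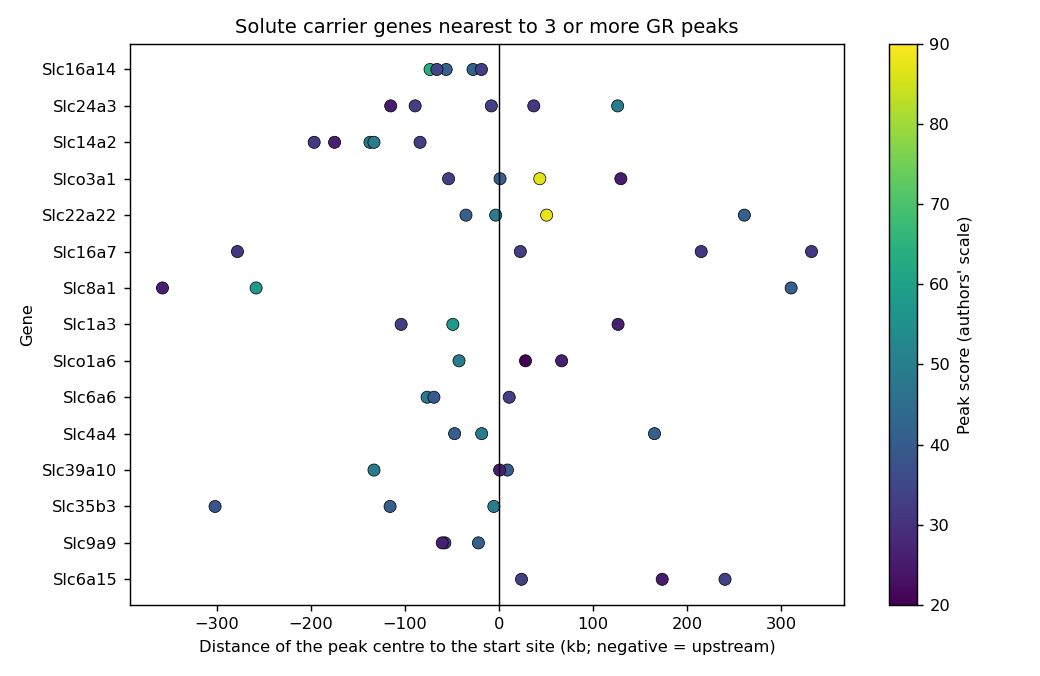
Distance in kb from the start site (horizontal axis, negative is upstream) of each peak of the 15 solute carrier genes with 3 or more peaks (vertical axis), coloured by score. The Slc16a14 peaks gather upstream within 54.8 kb, whereas those of Slc8a1 and Slc16a7 are spread over 668.9 and 631.0 kb.

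Close peaks were few. A peak within 3 kb of a start site was found at 13 solute carrier genes, or 3.34% of the 389 annotated protein-coding ones (95% Wilson interval 1.96 to 5.63). Over all 21887 protein-coding genes the share was 3.39%, so the solute carrier share was close to the background. The list annotates 4 of the 13 peaks as promoter peaks. Besides Slc25a15 these were Slc35e2, of the nucleotide sugar transporter family (score 33, -136 bp), Slc6a5, the glycine transporter of inhibitory neurons (33, -595 bp), and Slc38a6, of the neutral amino acid family (25, 423 bp). The Slc38a6 peak was annotated to the promoter of its neighbour Trmt5, so the pair share it. In intron 1, Slc39a10 held a peak in a CpG island at 597 bp with a score of 26. The other intron 1 peaks were those of Slco3a1, of Slc2a9, a urate transporter (31, 1257 bp), of Slc1a1 (33, 1841 bp) and of Slc25a37, the iron importer of mitochondria known as mitoferrin (36, 2016 bp). Upstream peaks stood at -1272 bp from Slc4a7 (33), -1300 bp from Slc23a1 (26), -1351 bp from Slc22a23 (31) and -1975 bp from Slc4a8 (33). Slc4a7 and Slc4a8 encode bicarbonate transporters and Slc23a1 an ascorbate transporter. No peak within 3 kb scored above 41.

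Solute carrier peaks more than 100 kb from a start site made up a smaller share than among other peaks, a difference described here by its counting intervals alone. Their median distance was 36.9 kb (95% interval 29.0 to 50.6), with quartiles of 15.9 and 80.3 kb. Other peaks had a median of 47.4 kb (46.0 to 49.6) and quartiles of 14.2 and 155.9 kb. Distances above 100 kb made up 22.4% of solute carrier peaks (37 of 165, 95% Wilson interval 16.7 to 29.4) and 33.8% of the others (32.9 to 34.7). Against only those others whose nearest gene was protein-coding the share was 30.9% (29.9 to 31.9), and the median 42.6 kb. The intervals of the medians overlap, while those of the share beyond 100 kb do not. Upstream of the start site lay 83 of the 165 (50.3%, 95% Wilson interval 42.8 to 57.8), against 43.9% (43.0 to 44.9) of the other peaks, and these intervals overlap.

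Nearly all assigned peaks lay between genes or in introns. Of the 165, 80 were intergenic (48.5%, 95% Wilson interval 41.0 to 56.1) against 56.4% (55.5 to 57.4) of other peaks, and 74 were in introns (44.8%, 37.5 to 52.5) against 37.2% (36.2 to 38.1). Both pairs of intervals overlap. Promoters held 2.42% (0.947 to 6.07), against 2.50% of other peaks. Shares in repeats were close to those of other peaks. LINE elements held 17.0% (12.0 to 23.4) against 16.9%, LTR elements 10.9% (7.01 to 16.6) against 10.1%, and SINE elements 6.67% against 6.94%. Satellite, rRNA, simple and low complexity sequence held 4 of the 165.

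**Figure D3:**
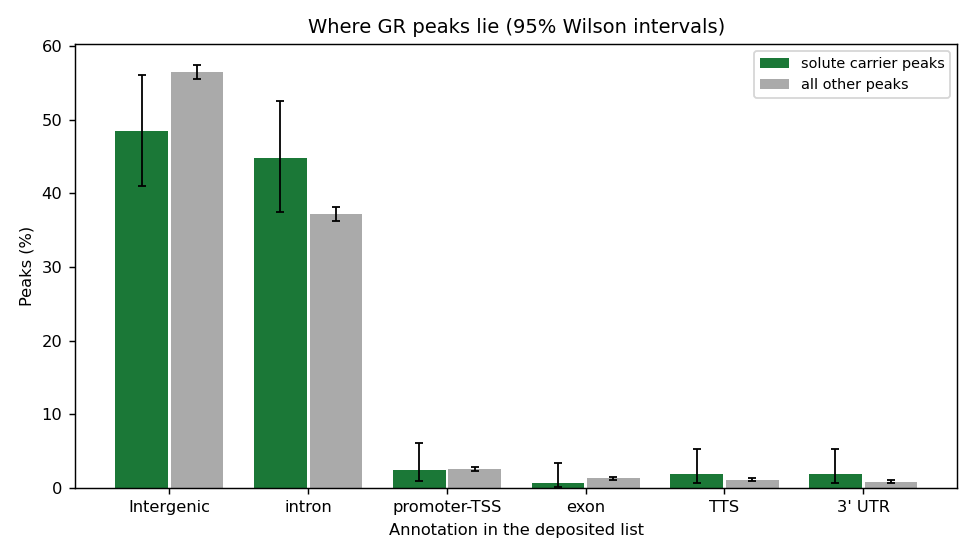
Share of peaks (vertical axis, percent, from 0) per annotation class for the 165 solute carrier peaks and the 10237 others, with 95% Wilson intervals. Introns hold 44.8% and 37.2%, and the intervals overlap in each class shown.

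Most assigned peaks lay outside the gene they were assigned to, the larger part of them between genes. No such share is given here for the other peaks of the list, so this is not a trait of solute carrier genes. Of the 165 peaks, 67 were annotated to the solute carrier gene they were assigned to, 18 to another gene and 80 between genes. Peaks at the promoter or end of a gene count to it here, and 61 of the 67 lay in introns. A peak annotated to the gene itself was found at 54 of the 105 genes. Conversely, 18 peaks lay in 15 solute carrier genes but were listed under a neighbour, and 11 of these 15 genes are therefore not among the 105. Slc9a9, a sodium and proton exchanger of endosomes, shows this most. Its 3 listed peaks lay upstream with scores of 41, 33 and 26. A further 4 peaks lay in its introns, with scores of 53, 41 and 33 under the microRNA gene Mir7656 and of 26 under Chst2, so that 7 peaks lay in or next to the gene. The intron peak of 53 (chromosome 9, from 94651167 as deposited) was the strongest of the 7. The 11 genes found only this way included Slc12a3, a sodium chloride cotransporter of the kidney (42, listed under Herpud1), Slc20a2, a phosphate transporter (41, under Smim19), Slco4c1 (41, under Panct2) and Slco2b1 (33, in its 3' UTR, under Tpbgl). The last 2 carry organic anions. These 4 genes were named after their values were seen.

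Counted by position, the density of peaks in solute carrier genes was close to that elsewhere. The 389 protein-coding solute carrier genes span 20.2 Mb, and 86 peaks were annotated to them, or 4.26 per Mb (exact 95% Poisson interval 3.41 to 5.26). Peaks annotated to promoters and gene ends are included in both groups. The other protein-coding genes held 4.01 per Mb (3.89 to 4.13).

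Of the 389 protein-coding solute carrier genes, 105 were nearest to a peak, or 27.0% (95% Wilson interval 22.8 to 31.6). This count adds Slc49a4, which the list gives under its older name Dirc2, to 104 protein-coding genes, and leaves out Slco6b1, which is annotated as a non-coding RNA gene. The share of all 21887 protein-coding genes was 22.5%. Longer genes had a peak more often, and solute carrier genes are longer, with a median length of 29794 bp against 16921 bp for the others. Those with a peak had a median length of 56604 bp and those without one 24841 bp. Protein-coding genes were split by length into 5 classes of equal size. In the longest class the solute carrier share was 54.9% (44.7 to 64.8) and that of other genes 44.7% (43.2 to 46.2). In the second shortest class it was 6.78% (2.67 to 16.2) against 15.3% (14.3 to 16.4). In the remaining classes, from short to long, the solute carrier shares were 7.14%, 18.2% and 24.8%, against 11.5%, 16.9% and 24.0%. The intervals of the pair overlapped in all 5 classes. Among other membrane protein genes, 39.9% of 143 voltage-gated ion channel genes (32.2 to 48.0, median length 42488 bp) and 29.4% of 102 orphan and adhesion receptor genes (21.4 to 38.9, 21379 bp) had a peak. The ion channel interval lies above the solute carrier interval, and the part of gene length in this was not tested.

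**Figure D4:**
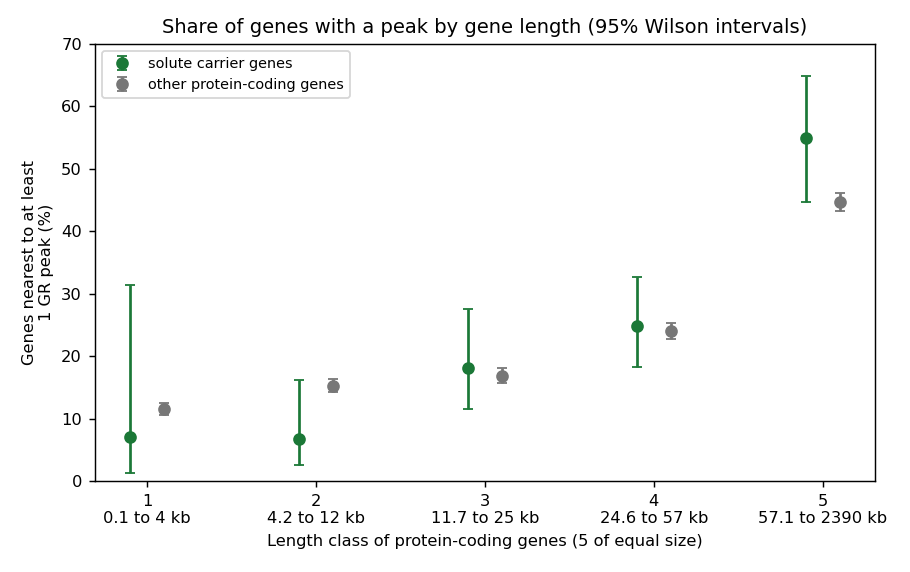
Share of genes nearest to at least 1 GR peak (vertical axis, percent) in 5 equal classes of protein-coding genes by length (horizontal axis), for solute carrier genes and other protein-coding genes, with 95% Wilson intervals. Both are highest in the longest class, at 54.9% and 44.7%.

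Grouped by what their family transports, 35 of 52 families had a gene with a peak. Families were assigned whole, so that Slc2a9 counts among sugar transporters and Slc4a1ap, which encodes no transporter, among those of inorganic ions. Transporters of bile acids and other organic ions had a peak at 18 of 50 genes (36%, 95% Wilson interval 24.1 to 49.9), with a median peak score of 41 and a median gene length of 38959 bp. Those of inorganic ions had one at 21 of 59 (35.6%, 24.6 to 48.3), with a median score of 33 and the longest genes, at 49835 bp. Both intervals lie above the 22.5% of all protein-coding genes and overlap the 27.0% of all solute carriers. The part of gene length in these shares was not tested. Among the inorganic ion families, the bicarbonate family (Slc4) had a peak at 6 of 11 genes, Slc4a1ap included. Potassium-dependent calcium exchangers (Slc24) had one at 3 of 5, with a median gene length of 138407 bp. The rest of the class had 2 of 4 (Slc8), 3 of 9 (Slc12), 1 of 3 (Slc34), 4 of 14 (Slc9), 2 of 11 (Slc26) and 0 of 2 (Slc20). Among the organic ion families, Slco had 7 of 14 (50%, 26.8 to 73.2), Slc22 7 of 25 (28%, 14.3 to 47.6), Slc10 3 of 7, Slc47 1 of 2 and Slc51 0 of 2.

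In the Slco family, whose members carry bile acids, steroid conjugates and thyroid hormones, the genes with a peak besides Slco3a1 and Slco1a6 had 1 or 2 peaks each. Slco1c1, the thyroxine transporter of the blood-brain barrier, had a score of 41 at -19218 bp. Slco5a1 had 41 at -9233 bp, and Slco1a4 had 41 at 98531 bp and 26 at 82049 bp. Slco6b1 had 41 inside the gene, Slco6c1 41 and 33 at -180233 and -244025 bp, and Slco6d1 49 and 32 at 665587 and 267084 bp. A list of thyroid and steroid hormone transporters was made up mostly of Slco genes and left out the bile acid transporter Slc10a2, which had peaks. Of its 22 genes, 8 had a peak (36.4%, 19.7 to 57.0), all of them Slco genes. The 22.5% of all protein-coding genes lies within this interval. The list has a median gene length of 58433.5 bp, and in the longest class of genes, which starts at 57148 bp, 44.7% of genes other than solute carriers had a peak. The part of gene length in the share of the list was not tested.

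The remaining classes had intervals that include 22.5%. Neurotransmitter transporters had a peak at 10 of 35 genes (28.6%), led by Slc17a8 and Slc6a20b at 58. Sugar transporters had 8 of 30 (26.7%), led by Slc2a2, and transporters of nucleotide sugars and sugar phosphates 8 of 31 (25.8%), led by Slc35b3. Amino acid and peptide transporters had 12 of 48 (25%), led by Slc1a1 and Slc1a3. Metal transporters had 7 of 33 (21.2%), led by Slc39a12, and transporters of carboxylates and fatty acids 5 of 25 (20%), led by Slc16a14. Mitochondrial carriers, the largest family, had 9 of 47 (19.1%, 10.4 to 32.5) with 1 peak each and a median gene length of 21491 bp, led by Slc25a33. Transporters of vitamins, nucleosides and choline had 4 of 25 (16%), led by the lysosomal nucleoside transporter Slc29a3 at 49. The 6 genes of no class had 3, of which 2 are the urea transporters.

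**Figure D5:**
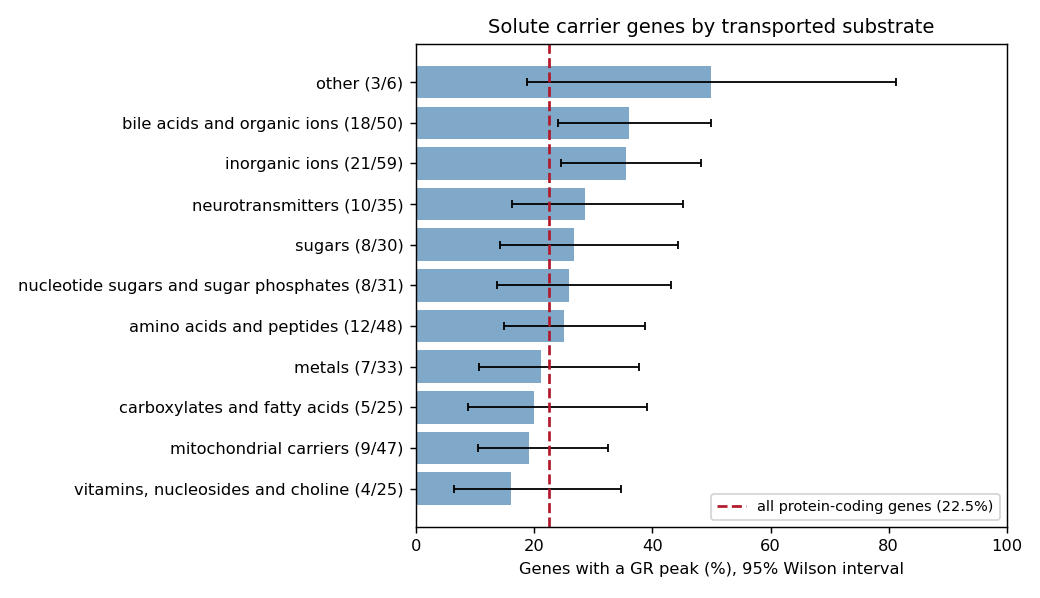
Share of protein-coding solute carrier genes nearest to at least 1 GR peak (horizontal axis, percent, from 0) per transported substrate (vertical axis, with genes with a peak of all genes), with 95% Wilson intervals and a dashed line at the 22.5% of all protein-coding genes. Organic ion and inorganic ion transporters have intervals above the line, and the others cross it.

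Transporters known from fat cells were not told apart from all protein-coding genes by their share with a peak. Of 22 such genes, 2 had one (9.09%, 95% Wilson interval 2.53 to 27.8), beside 22.5% of all protein-coding genes, which lies within that interval. Their median length was 15755 bp, beside 17169 bp for all protein-coding genes and 29794 bp for protein-coding solute carrier genes. The part of gene length in this share was not tested. The 2 were Slc16a3, the lactate exporter of glycolytic cells, with a score of 33 at -5196 bp on a SINE element, and Slc38a2, a sodium-coupled neutral amino acid transporter, with 33 at -78920 bp. The insulin-responsive glucose transporter Slc2a4, the ubiquitous glucose transporter Slc2a1, the fatty acid transport genes Slc27a1 and Slc27a4, the adipocyte marker Slc7a10 and the citrate carrier Slc25a1 were nearest to none, and none of the 22 had a peak inside. A missing peak does not show that a gene is unbound, since depth and the calling threshold are unknown.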

How the data were processed

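GR was immunoprecipitated from CD137+ and PDGFRa+ cells, with 1 GR library and 1 input each; the inputs were not analysed here. Per the submitters' processing notes, FastQC, Bowtie2, MACS2, SAMtools, bedtools 2.17.0 and mm10 were used, with no role given. The authors deposited the PDGFRa+ peaks with a peak score of unstated scale and a distance to the start site, and the CD137+ intervals with a peak signal that no header explains. Whether the inputs entered peak calling is not given in the sources used here.

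Genes were matched by identifier to the GRCm38.p6 gene table (all 105 found), and a containing gene was read from the transcript each peak is annotated to. Peaks annotated to a promoter or gene end therefore count to that gene, also where they lie just outside it. No coordinate was converted. Shares have 95% Wilson intervals, medians order-statistic intervals and densities exact Poisson intervals (Python 3.11.15, SciPy 1.17.1), all covering counting error only. The counting functions returned the planted counts when tested on simulated data. Read depth is unknown. Named genes were those of the 20 highest peaks outside satellite, rRNA, simple and low complexity repeats, those with a peak within 3 kb, those with 3 or more peaks, all Slco genes, the fat cell list and the highest-scoring genes per class. Members and lists were chosen with earlier results of these data known.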

Additional observations from a re-analysis of the deposited data

How the results depend on the processing

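With a score of at least 50, 15 genes and 3.86% of protein-coding solute carriers had a peak (2.60% of all protein-coding genes), and 33.3% of those peaks were in introns. With peaks within 3 kb, the values were 13 genes and 3.34%. Counting genes by the peaks annotated to their own transcripts, promoters and ends included, gave 69 of 399 annotated solute carrier genes. This alternative was chosen after seeing the data, and no share of all protein-coding genes is given for it. With the highest-scoring peak per gene the median score was 38, which the choice of the highest peak raises. Both peak filters leave fewer peaks. Within 100 kb the share was 24.7% (19.8% of all protein-coding genes) and without peaks on satellite, rRNA, simple or low complexity sequence 26.5% (22.2%); peaks on LINE, LTR and SINE elements were kept. The remaining alternatives for genes, shares, introns, distances, scores and substrate classes moved no value beyond its interval or by 1.5 times. The number of CD137+ intervals near a solute carrier gene was 0 within 50 kb and within 100 kb, and 3 within 200 kb, of 23 intervals. No such count is given here for other genes, so these have no background to be judged against. No paired analysis was possible because each group has 1 library. No value here has a replicate error, and unknown depth limits every count of genes without a peak.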

Other observations

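The 23 CD137+ intervals, on mm10, were set against the positions of protein-coding solute carrier genes in GRCm38. The median gap to the closest one on the same chromosome was 2944.7 kb. The gap to other genes is not given here, so this value has no background. The smallest gaps were 116.1 kb from the interval at Galnt16 to Slc39a9, a zinc transporter gene, 119.6 kb from the interval at LOC100862287 and E230001N04Rik to Slc26a8, an anion transporter gene of sperm, and 124.5 kb from the Per1 interval to Slc25a35, a mitochondrial carrier gene. Of these 3 genes, Slc26a8 was also nearest to a PDGFRa+ peak, with a score of 26 in its intron 2 of 19, 9613 bp from the start site.

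Some assigned peaks stood close together. The 2 peaks of Slc7a1, the arginine transporter of most cells, lay within 1.65 kb in its intron 1 of 12, with scores of 41 and 28. The 2 peaks assigned to Slc10a4 lay within 3.77 kb at the end of its neighbour Slain2, with scores of 33 each. Slc7a11, the cystine and glutamate exchanger, had peaks with scores of 49 and 33 that lay 231.7 and 290.2 kb from its start site, both between genes. These genes were chosen after their values were seen.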
